A study of Mus musculus with 6 samples.

Results

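A set of 283 circular RNAs (circRNAs) that gave bright probes in the striatum of WT mice and dimmer ones in HuD KO mice was selected on the measured values of 6 arrays, out of 14236 circRNA probes. A value here is the log2 of a probe's background-corrected signal, set against the 75th percentile of its own array, so that 0 marks the signal of a probe brighter than 75% of the circRNA probes there. This quantity is called the relative log2 signal. A circRNA was kept when its mean over the 3 WT arrays was 0 or more, which held for 3539 probes, and its mean over the 3 HuD KO arrays was lower by 2 or more, which held for 1366 probes. Both group means were used to choose the 283, so their differences between HuD KO and WT are given as a description, without tests.

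A circRNA forms when the spliceosome joins the end of an exon to the start of the same or an earlier exon, a step called back-splicing, and leaves a closed ring with a junction that no linear transcript of the gene contains. Such rings resist exonucleases, are plentiful in brain and at synapses, and can carry binding sites for miRNAs and proteins. HuD, the product of Elavl4, is a neuronal RNA-binding protein that recognises AU-rich and U-rich stretches and stabilises many of the mRNAs it binds.

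The striatum came from adult male C57BL6 mice. The HuD KO group held 3 mice that lacked both copies of Elavl4 (Elavl4 -/-), and the WT group held 3 littermates. Each mouse gave 1 array, after linear RNA had been digested with RNase R. The labels name no conditional allele and no transgene, and no label ties the replicate numbers of the groups to shared litters. In such tissue samples, fewer cells of a type and less RNA per cell cannot be told apart. All 3 WT arrays were read in 1 scan, HuD KO replicates 1 and 2 in another and HuD KO replicate 3 in one of its own, so scan and genotype cannot be told apart. The 75th percentile of the processed intensity was 181, 220 and 277 on HuD KO replicates 1 to 3 and between 143 and 164 on the WT arrays. The array reads circular junctions, and no annotated probe lay in Elavl4, so the deletion itself was not checked by these probes. No selected circRNA came from a gene on the oligodendrocyte, astrocyte or microglia marker lists. The same held for the other circRNAs that the authors had deposited as lower or higher in HuD KO. Pecam1, the endothelial adhesion molecule, and Foxp1, a transcription factor of striatal projection neurons, were the hosts of selected circRNAs on the marker lists.

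Host genes, classes and the 60-base sequences across the circular junction were at hand for 280 of the 283, from the deposited tables. The authors had deposited 1 table of circRNAs lower and 1 of circRNAs higher in HuD KO, and circRNAs in them are called listed lower and listed higher below. The 3 others are not named here. The sequences that recur among the largest differences are shown first. Capitals mark short motifs that were picked out after the values had been seen, by comparing all stretches of 8 letters between the 280 and the other 2776 annotated circRNAs. The first set holds motif 1, CCAGGTCC, and includes a pair of HuD-bound circRNAs (Map1a and Zfp426).
March6: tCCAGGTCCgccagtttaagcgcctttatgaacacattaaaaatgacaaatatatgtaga
Map1a: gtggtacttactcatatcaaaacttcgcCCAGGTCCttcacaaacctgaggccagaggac
Abi3bp: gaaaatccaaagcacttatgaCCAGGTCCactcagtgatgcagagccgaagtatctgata
Zfp426: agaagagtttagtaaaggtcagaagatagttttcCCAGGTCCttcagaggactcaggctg
Ttll5: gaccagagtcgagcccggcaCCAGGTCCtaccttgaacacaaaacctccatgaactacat

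The next set holds motif 2, CCTCGNC, where N is any base, and was put together from shorter stretches that recurred among the 40 largest differences. It includes 5 of the 10 largest differences, namely Fam135a, Igsf21, Cacnb2, Ncbp1 and Slc39a10.
Fam135a: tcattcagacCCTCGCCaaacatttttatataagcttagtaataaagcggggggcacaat
Igsf21: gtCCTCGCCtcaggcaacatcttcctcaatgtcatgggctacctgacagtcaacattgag
Cacnb2: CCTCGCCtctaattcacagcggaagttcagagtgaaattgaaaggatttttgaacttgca
Ncbp1: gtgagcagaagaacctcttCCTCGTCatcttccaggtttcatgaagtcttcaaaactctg
Slc39a10: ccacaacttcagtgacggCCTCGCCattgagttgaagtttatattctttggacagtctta
Samd1: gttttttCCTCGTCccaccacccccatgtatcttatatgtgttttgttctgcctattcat
Sema3c: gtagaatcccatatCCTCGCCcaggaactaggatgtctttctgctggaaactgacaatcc
Pdia5: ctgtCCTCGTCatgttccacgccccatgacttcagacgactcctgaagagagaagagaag

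The sequences with motif 3, CTCTGCCT, belong to smaller differences.
Kat6b: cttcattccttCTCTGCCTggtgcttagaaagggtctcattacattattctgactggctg
Ubn2: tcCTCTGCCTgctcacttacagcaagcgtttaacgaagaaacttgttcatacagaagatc
Ddx26b: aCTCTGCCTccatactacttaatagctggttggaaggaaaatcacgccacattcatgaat
Rel: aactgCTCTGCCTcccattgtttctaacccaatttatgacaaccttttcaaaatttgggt

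The last set holds purine repeats, with motif 4 spelled AGAAGAAG and motif 5 spelled GAGGAGGA, and includes the brightest selected circRNA (Ciz1) and the nearly identical pair from Magi1.
Ciz1: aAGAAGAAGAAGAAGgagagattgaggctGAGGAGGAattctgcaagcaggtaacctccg
Kif21a: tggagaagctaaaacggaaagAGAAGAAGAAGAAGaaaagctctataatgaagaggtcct
Snx10: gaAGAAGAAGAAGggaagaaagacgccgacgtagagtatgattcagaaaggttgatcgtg
Ezh2: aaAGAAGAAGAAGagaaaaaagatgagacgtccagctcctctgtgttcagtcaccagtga
Ythdf3: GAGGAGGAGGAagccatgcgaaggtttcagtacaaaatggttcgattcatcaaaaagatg
Atp2b3: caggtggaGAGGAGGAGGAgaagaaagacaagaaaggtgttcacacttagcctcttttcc
Igsf11: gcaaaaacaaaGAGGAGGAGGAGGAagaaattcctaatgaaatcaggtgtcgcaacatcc
Lppr4: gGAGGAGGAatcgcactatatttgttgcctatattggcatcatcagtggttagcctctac
Magi1 (sense overlapping): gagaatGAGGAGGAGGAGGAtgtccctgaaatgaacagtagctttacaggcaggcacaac
Magi1 (exonic): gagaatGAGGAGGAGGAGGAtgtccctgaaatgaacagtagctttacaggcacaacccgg

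Among the selected circRNAs, mean WT values ran from 0.00048 to 8.45 with a median of 1.5, and mean HuD KO values from -4.47 to 5.09 with a median of -1.07. The median difference was -2.49, a 5.60-fold lower signal. In WT the median selected circRNA stood at the 90.5th percentile of all probes, and in HuD KO at the 58.3th percentile. A total of 206 differed by less than 3 on the log2 scale, 77 by 3 or more, 24 by 4 or more and 11 by 5 or more. By way of background, 8.0% of the probes with a mean WT value of 0 or more, and 9.60% of all circRNA probes, lay 2 or more lower in HuD KO. The median difference was -0.17 over all circRNA probes and 0.11 over those with a mean WT value of 0 or more.

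**Figure D1:**
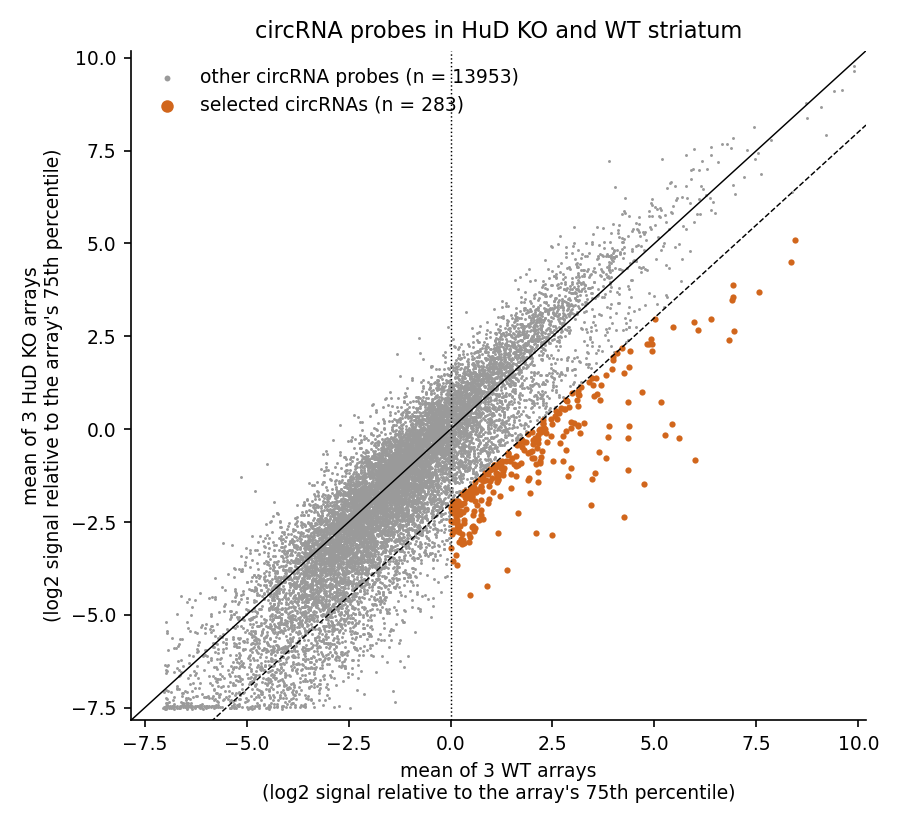
Mean relative log2 signal of each circRNA probe over the 3 HuD KO arrays (y axis) against the mean over the 3 WT arrays (x axis); the solid line marks equal values, the dashed line a difference of -2 and the dotted line a WT value of 0. The 283 selected circRNAs (orange) lie in the corner that the rule set, at or below the dashed line and to the right of the dotted line.

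The signal was lower but not lost. Of the 283 circRNAs, 277 were well above background on all 3 HuD KO arrays and the other 6 on 2 of them, so none was without signal throughout the group, and all 283 were well above background on every WT array. In HuD KO, 72 of them (25.4%) still had a mean of 0 or more, and 107 fell below the median probe of that group. The 6 with a HuD KO array at background, whose value there is only an upper limit, were the circRNAs of Slc39a10, Depdc7, Fbxl13, Trim12a and Adgre5 and 1 intergenic circRNA. For 11 of the 283, the spot on HuD KO replicate 3 was flagged as an outlier, and the HuD KO mean rests on 2 arrays.

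Values ran on across both limits without a gap. Just inside the limit on the difference were the circRNAs of Rptor (-2.0004) and Cyp2c70 (-2.0027) and of a probe with no host symbol (-2.0064), and just outside were those of Wdr5 (-1.9983), Htr2c (-1.9988) and Bcl9l (-1.9989). Just inside the limit on the WT level were Tnc (0.00048), Nup210 (0.015) and Adat1 (0.017), and just outside were Scml2 (-0.0096), Gm25682 (-0.0098) and an unnamed probe (-0.0062).

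An exonic circRNA of Fam135a, at chr1:24020674-24086611 on the minus strand, had 4.51, 4.40 and 3.87 in WT and -3.22, -2.80 and -1.07 in HuD KO. A circRNA of Hic2, which encodes a zinc finger transcriptional repressor, had 4.62, 4.99 and 4.62 in WT and -2.20, -2.26 and 0.04 in HuD KO. In both, HuD KO replicate 3 was the highest of its group and still far below the WT arrays. The differences of means were -6.62, or 98.6-fold lower, for Fam135a and -6.22, or 74.3-fold lower, for Hic2.

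The next circRNAs by size of difference came from genes of varied function. Igsf21 encodes a synaptic adhesion protein, and its circRNA went from 5.59 ± 0.12 in WT to -0.23 ± 1.26 in HuD KO (SD, n = 3). Zfp12, a zinc finger gene, gave 3.44 ± 0.38 and -2.04 ± 0.47. Sil1, whose product serves the chaperone BiP in the endoplasmic reticulum, gave 4.34 ± 0.20 and -1.10 ± 1.08. These 3 differences were -5.82, -5.48 and -5.44. Cacnb2 encodes an auxiliary subunit of voltage-gated calcium channels, and its circRNA went from 5.26 ± 0.19 to -0.17 ± 1.04. Kcnq1ot1 is an imprinted long noncoding RNA transcribed opposite to a potassium channel gene, and its circRNA went from 2.48 ± 0.15 to -2.85 ± 0.78. Ncbp1, a subunit of the nuclear cap-binding complex, gave 5.44 ± 0.14 and 0.13 ± 0.86. Slc39a10, a zinc importer, gave 1.38 ± 0.47 and -3.78 ± 0.52, with 1 HuD KO array at background. In each of these 7 the spread among HuD KO arrays exceeded that among WT arrays.

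**Figure D2:**
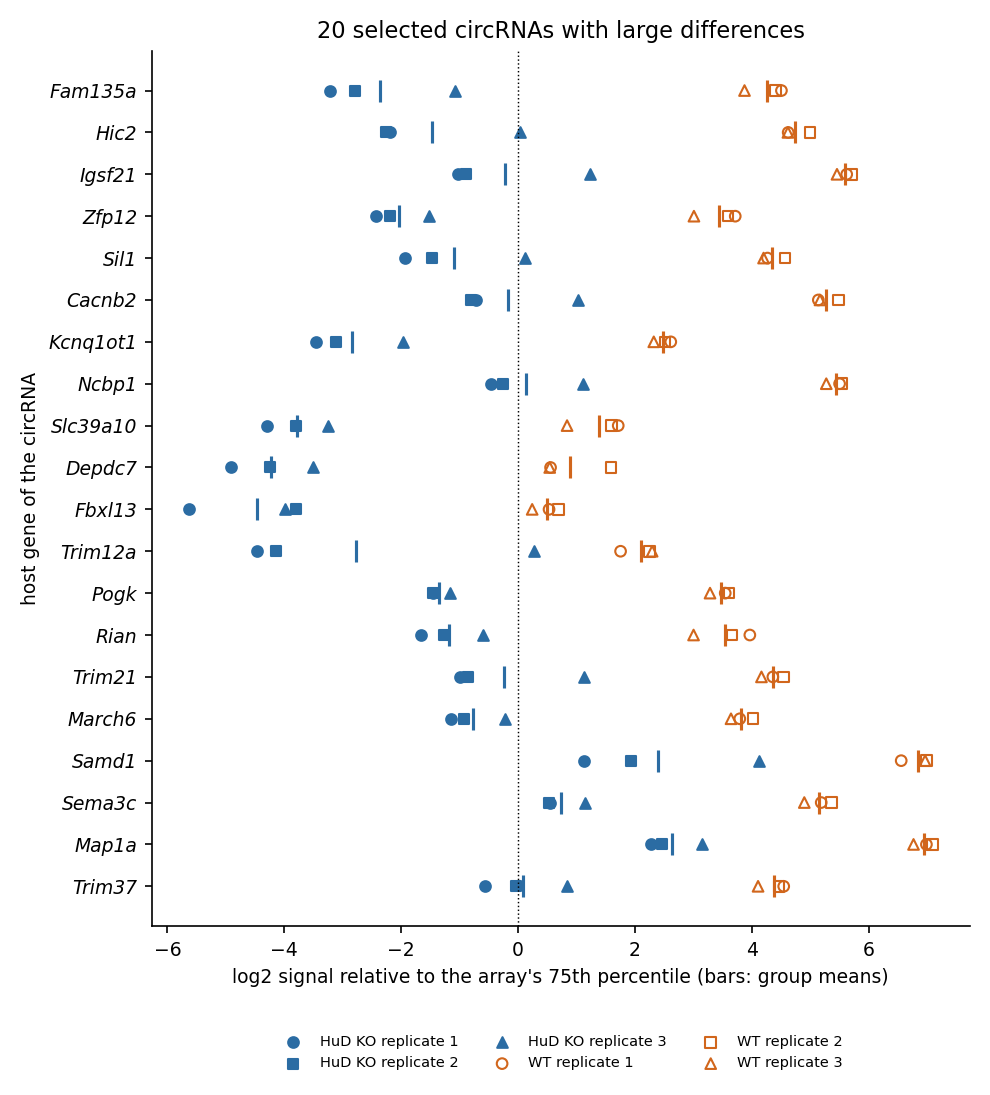
Relative log2 signal (x axis) of 20 selected circRNAs with large differences, by host gene (y axis), with filled blue symbols for the 3 HuD KO arrays, open orange symbols for the 3 WT arrays and bars for the group means. The WT arrays lie close together, and HuD KO replicate 3 (triangles) is the highest HuD KO array for 19 of the 20.

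The brightest selected circRNAs in WT stayed bright in HuD KO. The circRNA of Ciz1, a nuclear zinc finger gene linked to DNA replication, had 8.20, 8.55 and 8.60 in WT and 5.59, 5.15 and 4.54 in HuD KO. Here HuD KO replicate 3 was the lowest of its group, the reverse of the order seen for Fam135a. The difference was -3.36, or 10.3-fold lower, and the mean of 5.09 in HuD KO was the highest HuD KO mean of the 283. Kif21a, a kinesin gene, had 6.75, 6.99 and 7.0 in WT and 3.99, 3.74 and 2.93 in HuD KO. Ezh2, the methyltransferase of the Polycomb repressive complex, had 5.74, 6.21 and 6.26 in WT and 2.92, 2.64 and 2.41 in HuD KO. In all 3 of these circRNAs replicate 3 was the lowest HuD KO array, and WT replicate 1 the lowest WT array.

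Others among the 10 brightest had a different order of arrays. Samd1 had 6.55, 6.99 and 6.96 in WT and 1.13, 1.93 and 4.12 in HuD KO. Phka2, a regulatory subunit of phosphorylase kinase, had 6.14, 6.45 and 6.59 in WT and 2.13, 2.67 and 4.12 in HuD KO. In both, HuD KO replicate 3 was the highest. Snx10, a sorting nexin gene, had 6.77, 6.91 and 7.05 in WT and 3.65, 3.48 and 3.31 in HuD KO. An intergenic circRNA had 7.08, 7.31 and 6.42 in WT and 4.30, 3.78 and 3.56 in HuD KO. For these 2 the HuD KO arrays lay close together, and their differences were -3.43 and -3.06.

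HuD KO replicate 3, which was scanned on its own, stood apart from the other HuD KO arrays. It was the highest HuD KO array for 205 of the 283 and the lowest for 49. Its value exceeded the mean of replicates 1 and 2 by a median of 0.63 in the selected set, against -0.0019 over the 3256 other probes with a mean WT value of 0 or more. It lay 1 or more above that mean for 79 selected circRNAs (27.9%) and for 182 of the other probes (5.59%). Replicates 1 and 2, which shared a scan, differed by a median of 0.16 over the selected circRNAs. The shift was not particular to the selected set. Its median was 0.39 over the other circRNAs listed lower, where 14.5% of those with a value lay 1 or more above, and -0.28 over those listed higher. The largest shift in the selected set was in a circRNA of Trim12a, which encodes a TRIM family protein. It had -4.47, -4.14 and 0.27 in HuD KO and 1.75, 2.25 and 2.29 in WT. Whether the shift belonged to the mouse or to the scan cannot be told apart.

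The selection was repeated with each array left out in turn, and the array that had not been used was then read. For a HuD KO array the WT mean it was set against had also been used in the selection, and for a WT array the HuD KO mean had, so these readings are only partly independent of the rule. With HuD KO replicate 1 left out, 254 circRNAs met the limits, and in that array 233 of them (91.7%) were lower than the WT mean by 2 or more, with a median of -2.71. With replicate 2 left out, the share was 95.5% of 242 and the median was -2.82. With replicate 3 left out, 357 met the limits, and 346 had a value on that array. A total of 146 (42.2%) of these were lower by 2 or more there, and the median was -1.86. All but 3 of the 346 were still below the WT mean on replicate 3. Over all probes with a mean WT value of 0 or more, the shares lower by 2 or more on replicates 1, 2 and 3 were 9.66%, 10.8% and 4.81%. With a WT array left out, between 81.3% and 95.9% of the circRNAs picked were lower by 2 or more against that array. Over all probes of that brightness, the shares against WT replicates 1, 2 and 3 were 7.30%, 8.55% and 8.05%.

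Every HuD KO array lay below every WT array for all 283 circRNAs, and the smallest gap between the groups was 0.26. Such separation was seen for 34.5% of the probes with a mean WT value of 0 or more and for 40.7% of all circRNA probes. With limma, 5019 of 13431 tested probes (37.4%) were called lower at an adjusted p under 0.05, and all 283 were among them. Since the selection used the same contrast, nothing is read from these counts.

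The motifs were unevenly spread over the annotated circRNAs, and their choice for recurring in the selected set had fixed this in advance. Motif 1 stood in 12 of the 280 selected sequences (4.29%) and in 8 of the other 2776 (0.288%). It was in 0.654% of all 3056 annotated sequences. Motif 2 stood in 15 of the 280 (5.36%), in 11 of the others (0.396%) and in 0.851% of all. Motif 3 stood in 13 of the 280 (4.64%), in 6 of the others (0.216%) and in 0.622% of all. At least 1 of these 3 motifs was present in 39 selected circRNAs (13.9%), in 19 (1.78%) of 1068 other circRNAs listed as lower, and in 2 (0.175%) of 1140 listed as higher.

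Motifs 1 and 2 were frequent at the far end of the range. Among the 40 largest differences, motif 1 was in 7 sequences (17.5%) and motif 2 in 8 (20%), whereas motif 3 was in 0. Motif 2 was put together from stretches that recurred in these same 40. Its share there and its median difference partly reflect that choice, so nothing is read from them. The median difference of the selected circRNAs was -3.70 with motif 1, -3.85 with motif 2 and -2.24 with motif 3. Read as the reverse complement, motifs 1 and 2 were found in 0 of the 280 sequences, and motif 3 in 2 (0.714%). In the other 2776 the shares were 0.180%, 0.468% and 0.216%, so these reverse complements were rare in both sets. Outside the selected set, 7 of the 8 annotated circRNAs with motif 1 and 10 of the 11 with motif 2 were lower in HuD KO, as were 5 of the 6 with motif 3, 16 of the 26 with motif 4 and 9 of the 20 with motif 5. Of all 2776 other annotated circRNAs, 1258 (45.3%) were lower, 1068 of which the study had listed as lower. These shares describe sequences chosen for their letters after the values were known and were not tested. The comparison sets hold circRNAs that had been listed by the study for a change or for binding to HuD. They were not limited to probes bright in WT, as the selected set was. The median WT value of circRNAs with motif 2 was 3.98 in the selected set and -0.64 in the others. The part of brightness in the shares was not tested. The sequences of the remaining probes are not used here.

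Purine repeats were also among the recurring letters, beside AAGAACAT (8 of the 280, against 8 of the others) and CATCTTCC (8 and 10). Motif 4 stood in 12 selected sequences (4.29%), in 26 of the others (0.937%) and in 1.24% of all annotated. Motif 5 stood in 12 (4.29%, with the nearly identical Magi1 pair counted as separate circRNAs), in 20 of the others (0.720%) and in 1.05% of all. A single selected circRNA, that of Ciz1, held both motifs. The reverse complement of motif 4 was in 2 of the 280 (0.714%) and in 8 of the others (0.288%). That of motif 5, TCCTCCTC, was in 9 of the 280 (3.21%) and in 7 of the others (0.252%), all 7 of them listed lower. This stretch also ranked high in the search that gave motif 5, so it is no separate check on that motif. Across the 5 motifs, 61 selected circRNAs (21.8%) had at least 1, against 69 of the other 2776 (2.49%). Only 3 selected circRNAs had more than 1. The motifs had been picked for recurring in the selected set, most of them by comparison with these same 2776. The excess was therefore set by that choice, and nothing is read from it.

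**Figure D3:**
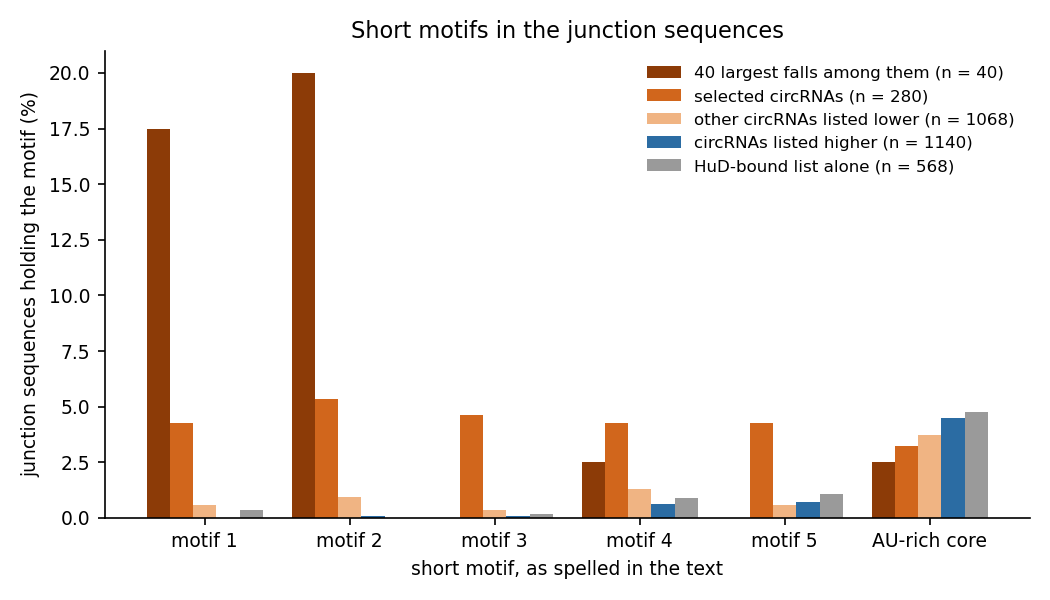
Share of junction sequences (y axis, percent) that hold each motif (x axis) among the 40 largest differences, all 280 annotated selected circRNAs, other circRNAs listed lower, circRNAs listed higher and circRNAs on the HuD-bound list alone. The bars for motifs 1 and 2 reach 17.5% and 20% in the 40 largest differences and 4.29% and 5.36% in the whole selected set, while the AU-rich core is at 3.21%. Motif 2 was put together from stretches that recurred in those same 40, and the other numbered motifs were picked for recurring in the selected set.

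The position of HuD KO replicate 3 was read by motif. Of the 39 selected circRNAs with motif 1, 2 or 3, replicate 3 was above the mean of replicates 1 and 2 in 38, with a median shift of 0.76. Of the 23 with motif 4 or 5, it was below that mean in 17, with a median shift of -0.35. The 17 count both circRNAs of the nearly identical Magi1 pair, which are not independent readings. Over the 219 circRNAs with none of the motifs, the median shift was 0.68, with 176 of the 211 that had a value above that mean, so circRNAs with motif 1, 2 or 3 lay near the rest and those with motif 4 or 5 lay lower. Among the 79 circRNAs with replicate 3 higher by 1 or more, 14 (17.7%) held motif 1, 2 or 3, near the 13.9% in the whole set, and 0 held motif 4 or 5, against 8.21% in the whole set. Among the 15 with replicate 3 lower by 0.5 or more, 7 held motif 4 or 5. Outside the selected set, the median shift was -0.33 with motif 4 and -0.27 with motif 5, against -0.029 over all 2776 other annotated circRNAs. The part of the scan in this pattern was not tested.

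**Figure D4:**
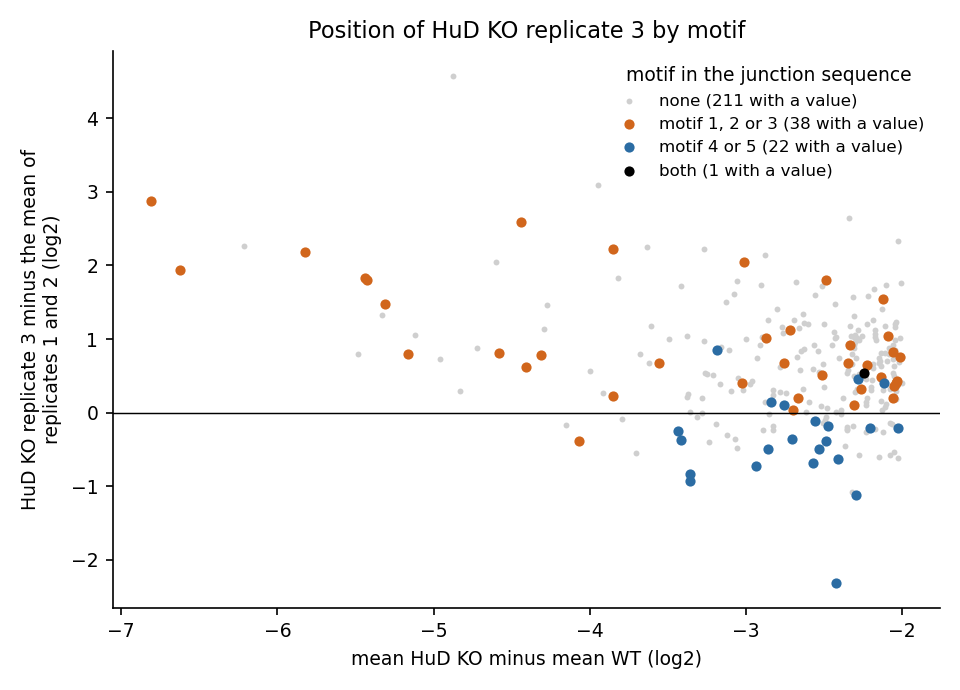
HuD KO replicate 3 minus the mean of HuD KO replicates 1 and 2 (y axis, log2) against the mean HuD KO minus mean WT difference (x axis, log2) for each selected circRNA with an annotation and a value on replicate 3, coloured by the motif in its junction sequence. CircRNAs with motif 1, 2 or 3 lie above 0 in 38 of 39 cases, and those with motif 4 or 5 lie below 0 in 17 of 23, with the nearly identical Magi1 pair counted as separate cases.

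AU-rich letters, known as sites for Hu proteins, occurred at about the background share. The pentamer ATTTA, the core of AU-rich elements, was in 9 of the 280 junction sequences (3.21%), in 3.75% of the other circRNAs listed lower, in 4.47% of those listed higher and in 4.16% of all annotated sequences. Its reverse complement was in 3.21% of the 280. A run of 5 T was in 5.0% of the 280 and 5.14% of all. A window of 60 bases covers little of most rings, so nothing follows for the rest of each circRNA.

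The base make-up of the junctions differed between directions of change. Cytosine made up a median of 26.7% of the letters in the selected circRNAs, with quartiles of 21.7% and 31.7%. It made up 25% in the other circRNAs listed lower and 18.3% in those listed higher. A and G together made up 46.7% in the selected set and 56.7% in those listed higher and in the HuD-bound list alone. The share of G and C was 46.7% and 43.3% in the selected and the higher set, so C and A differed more than the total GC content.

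The study's list of circRNAs that came down with tagged HuD from the striatum of other mice was compared next, by membership alone. The list as used here holds 658 circRNAs, fewer than the study names, and any others were not analysed. Of the 283 circRNAs, 10 (3.53%) were on these 658, which covered 4.62% of all circRNA probes. Among the 3256 other probes with a mean WT value of 0 or more, 334 (10.3%) were on it. Seen from the list, 344 of its circRNAs had a mean WT value of 0 or more, and their median difference was 0.47, with 81 (23.5%) below 0. For the 3195 probes of that brightness that were not on the list, the median difference was 0.06, with 47.4% below 0. The selected set took in 2.91% of the bound and 8.54% of the other bright probes.

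The bound circRNAs in the set were led by Map1a, Trim37, Zfp426, Pdia5 and Foxp1. Map1a encodes a microtubule-associated protein of neurons, and its circRNA, 450 bases long at chr2:121298596-121299046, had 6.99, 7.09 and 6.76 in WT and 2.28, 2.46 and 3.15 in HuD KO. It was 19.9-fold lower. Trim37, which encodes a ubiquitin ligase, had 4.54, 4.46 and 4.11 in WT and -0.56, -0.04 and 0.83 in HuD KO. It was 19.6-fold lower. Zfp426, a zinc finger gene and the host of the next brightest circRNA after Ciz1, had 8.36, 8.46 and 8.20 in WT and 4.10, 4.73 and 4.65 in HuD KO.

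Pdia5 encodes a member of the protein disulfide isomerase family, and its circRNA had 7.38, 7.69 and 7.59 in WT and 2.78, 3.15 and 5.19 in HuD KO. Replicate 3 accounted for most of the spread in HuD KO, where the SD was 1.30 against 0.16 in WT. Foxp1 had 4.89, 4.67 and 4.56 in WT and 1.09, 1.28 and 0.63 in HuD KO, a 13.0-fold lower signal with tight groups. The other 5 bound circRNAs had smaller differences, between -2.05 and -2.32. They came from Cdc42se2, Lsamp, Lppr4, Fam81a and Zfp65. Lsamp encodes an adhesion molecule of limbic neurons, and its ring had the longest span of all selected circRNAs, 255.8 kb on the genome. Lppr4, which encodes a lipid phosphatase-related membrane protein of synapses, had 1.81, 2.53 and 2.56 in WT and -0.12, -0.15 and 0.32 in HuD KO.

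**Figure D5:**
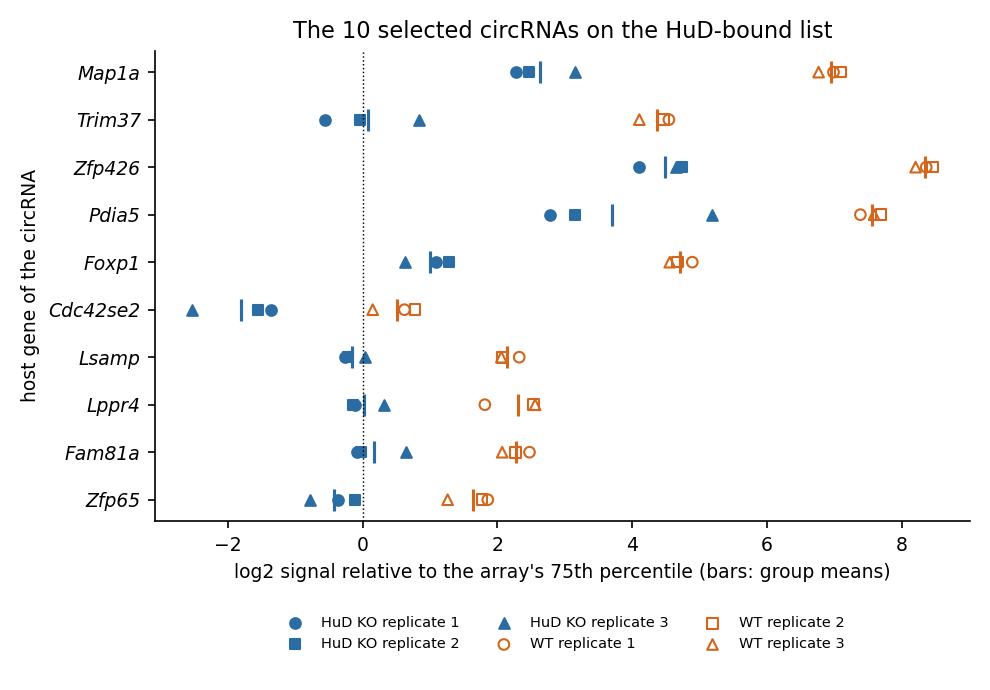
Relative log2 signal (x axis) of the 10 selected circRNAs on the HuD-bound list, by host gene (y axis), with filled blue symbols for the 3 HuD KO arrays, open orange symbols for the 3 WT arrays and bars for the group means. Zfp426, Pdia5 and Map1a stay well above 0 in HuD KO, with means of 4.49, 3.71 and 2.63, and Trim37 has a mean of 0.08.

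Host genes that gave several selected circRNAs were few. The 263 selected circRNAs with a host symbol came from 256 hosts, and 7 hosts gave 2 each, namely Adgre5, Fam188b, Magi1, Mphosph10, Myo5b, Nup210 and Vmn2r107. The Magi1 pair, from a gene of a synaptic and junctional scaffold, begins at positions 93792345 and 93792346 of chromosome 6 and ends at 93815828 and 93815825. Their junction sequences share a run of 52 letters, so the probes are not independent readings. The former had 4.50, 5.07 and 5.04 in WT and 2.61, 2.45 and 1.84 in HuD KO, and the other had 4.37, 5.09 and 5.01 and 2.53, 2.39 and 1.96. The Vmn2r107 pair shared a run of 39 letters and had differences of -3.19 and -3.12. The pair from Adgre5, an adhesion receptor gene, lay apart in the gene and had differences of -3.62 and -2.33. Brwd1, a bromodomain gene, gave 1 selected circRNA with 0.79, 1.18 and 1.49 in WT and -1.04, -1.08 and -1.51 in HuD KO.

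Other circRNAs of the same hosts moved either way. Of the hosts, 49 had at least 1 further annotated circRNA, 61 in all, and 31 of the 61 (50.8%) had a higher mean in HuD KO than in WT, near the 54.5% of all 2776 other annotated circRNAs. Their median difference was 0.16, and they ranged from -3.52 to 1.93. Of the 61, 25 had been listed by the study as lower, 23 as higher and 13 for HuD binding alone, so this count does not stand for all circRNAs of these genes. Fam135a had 2 further circRNAs, both higher, by 1.71 and 1.66, beside the difference of -6.62 in the selected one. The brighter of them had 2.87, 3.16 and 2.95 in HuD KO and 1.34, 1.19 and 1.32 in WT. Trim37 had 3 further circRNAs, higher by 1.12, 1.1 and 0.76. Kat6b, a histone acetyltransferase gene, had an antisense circRNA lower by 3.01 and 2 others that were higher by 1.52 and 1.28.

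Foxp1 had circRNAs of both directions within the HuD-bound list. Its selected circRNA differed by -3.70, and 2 others, both bound, by 1.28 and 0.47. Magi1 had 1 further circRNA lower by 1.67 and 1 bound circRNA higher by 1.05. Brwd1 had a bound circRNA with a difference of -1.78 beside the selected -2.36. The largest same-host differences were -3.52 in BC051142, whose HuD KO replicate 3 value was missing, and -3.44 in C9, a complement gene.

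The host genes were sorted into lists by function, and 91 of the selected circRNAs fell on at least 1 list. The ubiquitin pathway had 12 (4.29% of the 280), against 3.37% of other circRNAs listed lower and 5.09% of those listed higher. Its largest differences were in Fbxl13 (-4.96) and Trim12a (-4.88), both well above background on 2 of 3 HuD KO arrays, and in Trim21 (-4.60, from the antisense strand). RNA-binding and splicing genes gave 10 (3.57%, against 2.72% and 2.54%), led by Dhx32 (-3.79), a helicase gene, Igf2bp3 (-3.53, from 2 HuD KO arrays) and Ddx26b (-2.76). The list took in Ddx26b by its name. Cytoskeleton and motor genes also gave 10 (3.57%, against 2.25% and 3.25%), led by Map1a (-4.31), Kif21a (-3.36) and Ttll5 (-3.02), which encodes a tubulin glutamylase.

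A further 4 lists gave 8 circRNAs each. Those of synapse scaffolds, receptors and release (2.86%, against 1.78% and 5.18%) were led by Igsf21 (-5.82) and the pair from Magi1 (-2.57 and -2.53), and their 8 include Htra1 (-2.48), a secreted serine protease gene that the list took in by its name. Those of adhesion and axon guidance (2.86%, against 3.09% and 3.07%) were led by the semaphorins Sema3c (-4.41) and Sema3f (-3.91) and by the netrin Ntn4 (-2.77). Chromatin regulators (2.86%, against 2.25% and 4.91%) were led by Ezh2 (-3.41), Smarcad1 (-3.03, without a value on HuD KO replicate 3) and Kat6b (-3.01). Solute carriers and pumps (2.86%, against 2.34% and 1.49%) were led by Slc39a10 (-5.16, with 1 HuD KO array at background), Slc35d2 (-3.27) and the plasma membrane calcium pump Atp2b3 (-2.71).

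Kinases, phosphatases and second messengers gave 4 (1.43%, against 4.40% and 9.21%), led by Phka2 (-3.42), Prkd1 (-2.66) and Map3k19 (-2.41). Zinc finger genes gave 7 (2.50%, against 2.15% and 2.89%), led by Hic2, Zfp12 and Zfp426. Vesicle and membrane traffic gave 6 (2.14%, against 1.78% and 2.89%), led by Mtmr3 (-4.0), Snx10 and Osbpl7 (-2.33). Small GTPase regulators gave 5 (1.79%, against 2.15% and 3.51%), led by Rapgef2 (-4.15), Tbc1d19 (-2.42) and Tbc1d20 (-2.31). Ion channels gave 4 (1.43%, against 1.78% and 2.19%), led by Cacnb2, Kcnq1ot1, which is a noncoding RNA, and Kcnmb2 (-2.56). Of the striatal projection neuron markers, Foxp1 alone was a host.

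The classes of the selected circRNAs were much like those of other circRNAs listed lower. Of the 280, 187 (66.8%) were exonic, against 65.8% of the others listed lower, 51 (18.2%, against 17.2%) overlapped a gene on the sense strand, 15 (5.36%) were intronic, 14 (5.0%) antisense and 13 (4.64%) intergenic. Among circRNAs listed higher, 83.2% were exonic, 0.526% antisense and 0.614% intergenic. The span on the genome had a median of 8.42 kb in the selected set, 7.95 kb in the other circRNAs listed lower and 17.5 kb in those listed higher. Spans under 200 bases were seen in 18 selected circRNAs (6.43%), in 6.09% of the other lower ones and in 1.58% of the higher ones. Of the 14 antisense circRNAs, 10 were that short, with the largest differences in Rian (-4.72), an imprinted noncoding RNA, and Trim21 (-4.60).

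The deposited tables also name up to 5 miRNAs predicted to pair with each circRNA. Over the 280, 733 miRNAs were named, and 4 of the 6 most frequent had a mature sequence in RefSeq (GRCm38.p6). They are shown with the seed, bases 2 to 8, in capitals.
mmu-miR-7092-3p: uGUUCUUUguuuuguuugccuuag
mmu-miR-5110: gGAGGAGGuagagggugguggaauu
mmu-miR-1903: cCUUCUUCuucuuccugagaca
mmu-miR-6946-3p: uUUCUUCUcuucccuuucag

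The first, mmu-miR-7092-3p, was named for 33 selected circRNAs (11.8%), 10.3% of the others listed lower and 11.3% of those listed higher, which is nearly the same share. For mmu-miR-5110 the shares were 9.64%, 6.09% and 3.86%, and for mmu-miR-1903 they were 8.93%, 5.15% and 11.4%. For mmu-miR-6946-3p they were 5.36%, 3.18% and 5.61%. The 4 seeds differ, but those of mmu-miR-1903 and mmu-miR-6946-3p share the run UUCUUC. Both of these seeds are complementary to letters inside motif 4. The seed of mmu-miR-5110 is complementary to letters inside TCCTCCTC, the reverse complement of motif 5. Of the 12 circRNAs with motif 4, 4 were named for mmu-miR-1903, as were 21 selected circRNAs without motif 4. Such counts were not made for the other miRNAs. mmu-miR-6981-5p (5.0%, 4.59% and 2.37%) and mmu-miR-1249-5p (4.64%, 3.37% and 0.702%) followed. None of these predictions was measured on the arrays.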

How the data were processed

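RNA from the striatum of 3 HuD KO mice and 3 WT littermates was measured on 1 one-colour circRNA array per mouse, after RNase R treatment, random-primed labelling with Cy3 and spot reading by Agilent Feature Extraction (version 11.0.1.1). The deposited scanner files give spot intensity, corrected for background by the software and not normalized between arrays, with uncorrected medians and flags. The authors also deposited normalized log2 values for circRNAs listed lower or higher, beside their p-value, FDR and fold columns, which were not used. The normalization of those values and the genome build of the coordinates are not given in the sources used here. Of 185 exonic selected circRNAs with a host in a GRCm38.p6 gene table, 183 (98.9%) lay inside that host, and 246 of 256 host symbols were found.

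Values were log2 processed intensity minus the 75th percentile over circRNA probes, with outlier spots (3 to 95 per array) left out. limma 3.58.1 in R 4.3.3 (lmFit, eBayes, Benjamini-Hochberg, adjusted p under 0.05) was fitted to probes that rose well above background on every array of at least 1 group, with at least 2 values in each group and no covariate. It was tested on simulated data. The scanner files hold no mean signal, so normexp (offset 50) used the median signal. No saturated spot was found among circRNA probes, and precision is limited by the number of arrays.

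The circRNAs and host lists were chosen with earlier results of these data known. Named circRNAs are the 10 brightest in WT, the 10 largest differences, HuD-bound ones, those of hosts with several or of Brwd1, Foxp1, Lppr4, Magi1 and Map1a, the 3 largest per host list, the 3 on each side of a limit and the largest differences among other circRNAs of the hosts; 1 circRNA under this rule is not reported here. Others were named after their values were seen. From the HuD-bound list only membership, class, position and sequence were taken. Motifs were searched in the 60 letters as deposited and as the reverse complement. Alternatives were other scalings, background corrections, limits, filters and tests, and leaving out each array.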

Additional observations from a re-analysis of the deposited data

How the results depend on the processing

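The count of 283 circRNAs depended on scaling and background correction. It was 116 with no scaling, 823 with scaling on circRNA control probes, 115 with normexp before the 75th percentile, and 146 with normexp before quantile normalization. With a difference of -1 or lower it was 812, with -3 or lower 77, with a mean WT value of 1 or more 174 and of -1 or more 441. The other scalings gave 200 to 299, and leaving out 1 array gave 242 to 357. The median difference of the selected circRNAs was -1.96 with no scaling, -3.26 with scaling on control probes, -1.90 with normexp before the 75th percentile, and -1.97 with normexp before quantile normalization. It was -2.68 to -2.40 with an array left out and -2.32 with the deposited normalized values. HuD-bound circRNAs in the set numbered 5 with no scaling, 5 with normexp before the 75th percentile, 17 with a difference of -1 or lower, 5 with -3 or lower and 8 to 11 with an array left out.

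Calls over all probes were 5019 lower and 3448 higher. With no scaling they were 2553 and 5339, with scaling on control probes 8470 and 603, with quantile normalization 3824 and 4525, and with array median scaling 4307 and 4594. Leaving out 1 array gave 4357 to 5291 lower and 2664 to 3847 higher calls. Scaling also set the centre of all probes, whose median difference was -0.94 with control probes and 0.36 with no scaling. With the replicate block, 4813 probes were called lower and 3150 higher. The numbers did not pair the arrays: deviations of same-numbered arrays correlated at -0.0094, -0.029 and -0.078, and no HuD KO array correlated best with the WT array of its own number. Processed signal over background limits the values of the dimmest HuD KO spots. The causes of these shifts were not tested.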
